A study of Drosophila melanogaster with 10 samples.

Results

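The comparison described here sets SL2 cells treated with M1, a double-stranded RNA (dsRNA) construct directed at MBD-R2, against SL2 cells treated with dsRNA for GST, the control. It comprises 6 of the 10 arrays of the study, 3 labelled MBD-R2 RNAi M1 and 3 labelled GST RNAi. The remaining arrays are 3 of a further MBD-R2 construct, M2, and 1 of cells that received no dsRNA. SL2 is an established Drosophila line of embryonic, hemocyte-like origin, and the study used no other line. Each dsRNA culture received 10 µg of dsRNA, and RNA was extracted after 7 days. The members are the probe sets, other than Affymetrix control probe sets, whose mean log2 value over the 6 arrays was at least 4, and 7300 of 18952 probe sets met this rule. They represent 5910 named genes. Replicate 3 of both groups was treated as a second array set, as explained with the values below.

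MBD-R2 is a subunit of the NSL (non-specific lethal) complex, which contains the histone acetyltransferase MOF and binds the promoters of many active genes. MOF also acts in the MSL (male-specific lethal) complex, which raises transcription from the single X chromosome of male flies, and SL2 cells are male in this respect. RNA interference with dsRNA lowers the messenger RNA that carries the same sequence. How far M1 lowered the MBD-R2 transcript was not analysed here, and M1 below names the treatment only.

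The deposited values are log2 expression values, on which a difference of 1 is a 2-fold difference. Hemocyte markers were present on all 6 arrays: all 12 markers on the list passed the filter, among them Hml and Pxn, and their summed log2 level was 154.15 to 156.01 with GST and 151.73 to 159.95 with M1. Fat body and muscle markers were below the filter, and of 5 germ line markers vas and bam were. The arrays fell into 2 sets. Within each group replicates 1 and 2 resembled each other, with 257 probe sets differing by more than 2-fold between them for GST and 199 for M1, whereas 1073 to 1601 differed between either of them and replicate 3. Probe sets near the 3′ end of the actin control transcript exceeded those near its 5′ end by 0.42 to 1.16 on the log2 scale in replicates 1 and 2 and by 2.65 and 2.84 in replicate 3, a measure that tracks RNA integrity or labelling. Within the sets this gap was 0.56, 1.16 and 2.84 in GST replicates 1, 2 and 3 and 0.55, 0.42 and 2.65 in those of M1. For the eIF-4a control it was 1.93, 1.97 and 2.95 with GST and 1.73, 1.92 and 3.53 with M1. The labels do not name these sets, so the array set entered the fit as a block. The labels call the replicates biological.

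M1 changed 2474 of the 7300 probe sets, 33.9% of those tested, and falls were more frequent than rises (limma with the array set as a block, Benjamini-Hochberg adjusted p under 0.05, two-sided). With M1, 1575 probe sets were lower (21.6%) and 899 were higher (12.3%). Counted by gene, with 1 probe set each, 1428 genes were lower (24.2%) and 670 were higher (11.3%), 2098 genes in all (35.5%). The median change was -1.18 among probe sets called lower and 1.03 among those called higher, against -0.05 over all probe sets tested. More than 2-fold falls numbered 956 and more than 2-fold rises 466, and 78 probe sets fell and 56 rose by more than 8-fold. Of the 2474, 2473 moved the same way in all 3 pairs of arrays with equal replicate numbers, as did 2543 of all tested probe sets downward (34.8%) and 1749 upward (24.0%). The 3 M1 values lay wholly below the 3 GST values for 1789 probe sets (24.5%) and wholly above them for 883 (12.1%).

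The count depended on the scaling of the arrays. Quantile normalisation of the deposited values gave 1409 lower and 1288 higher probe sets, so the lower share of the calls was 52.2% there against 63.7% in the deposited values. Centring on the spike-in controls left 74 calls. Leaving out M1 replicate 2 left 545 rises, and the other single-array omissions left 641 to 794. With the array set as a block, leaving out replicate 3 of either group gives the same fit, that of replicates 1 and 2 alone. Here and below these omissions are therefore not separate checks of a limma call. Probe sets that passed the filter through the level of 1 group alone numbered 180 for GST and 126 for M1, and such probe sets had to differ between the groups. Among the 12 falls described first, Gr61a, f-cup, GatB, sgll, Vps16B, TyrRS-m, Pus10 and Targ3 are of the first kind and so had to be lower. Among the 12 rises described first, zye is of the second kind and so had to be higher. Of the list members named later, Orc4, Spt3, Rpt3R, eIF4E6 and zpg are of the first kind, as is TyrRS-m of the synthetases. Rpt3R and zpg also had M1 means near the lowest value of the table. Cyp9b1, Ugt302K1, LpR1 and sls, also named later, are of the second kind and so had to be higher.

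The 12 falls with the largest moderated t statistic, limma's measure of a change against its error, were named by rule and are described first. A choice by large t favours groups that lie apart, here and among the 12 rises. Gr61a, a gustatory receptor gene, read 7.14, 7.17 and 6.97 on the GST arrays and 2.56, 2.55 and 2.44 on the M1 arrays. The M1 values are close to the lowest value of the table, 2.22, so the fold is limited by the range of the method. The change was -4.58 ± 0.12 (SE, n = 3 per group, limma adjusted p = 8.7e-05).

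GatB encodes a subunit of the mitochondrial glutamyl-tRNA amidotransferase. It read 6.44, 6.23 and 6.09 with GST and 2.38, 2.50 and 2.58 with M1, which is again near the lowest value. TyrRS-m, the mitochondrial tyrosyl-tRNA synthetase, read 6.41, 6.44 and 7.08 with GST and 3.02, 2.69 and 3.02 with M1, near that value too. For both genes every M1 array lay more than 3 log2 units below every GST array. Both were chosen for a large t and passed the filter through the GST level alone, so this gap is no separate evidence.

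GstE13, a glutathione S-transferase of the epsilon class, fell from 9.23, 9.44 and 8.89 to 5.17, 5.60 and 4.71, a 16.3-fold lower level (limma adjusted p = 0.00013). SelR, a methionine sulfoxide reductase that repairs oxidised protein, read 8.45, 8.40 and 8.43 with GST and 5.64, 5.47 and 5.35 with M1. It fell by 2.94 ± 0.13 (SE), with little spread in either group. sgll encodes the enzyme that makes pyridoxal phosphate, the active form of vitamin B6.

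sgll values were 7.07, 6.69 and 7.95 with GST and 3.26, 3.14 and 4.34 with M1. Replicate 3 was higher than the other replicates in both groups, and the difference between groups was nearly the same in each pair. Gas41, a YEATS-domain protein of a chromatin remodelling complex, read 7.50, 7.19 and 7.28 with GST and 4.20, 4.33 and 4.28 with M1. Pus10, a pseudouridine synthase, fell from 6.10, 6.22 and 6.10 to 3.49 on each of the M1 arrays, whose values were equal.

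The remaining falls of the 12 were f-cup, Vps16B, Targ3 and beg. Their groups did not overlap, which the choice by large t favours. f-cup, known for expression late in the male germ line, fell by 3.70 ± 0.13 (SE), and Vps16B, which acts in phagosome and endosome maturation, fell by 3.67 ± 0.16. Targ3 fell by 3.08 ± 0.15 to an M1 level near the lowest value, which limits the size, and beg fell by 2.68 ± 0.14. None of the 12 lies on the X chromosome, which held 178 of the 1428 genes called lower, so few would be among any 12.

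**Figure D1:**
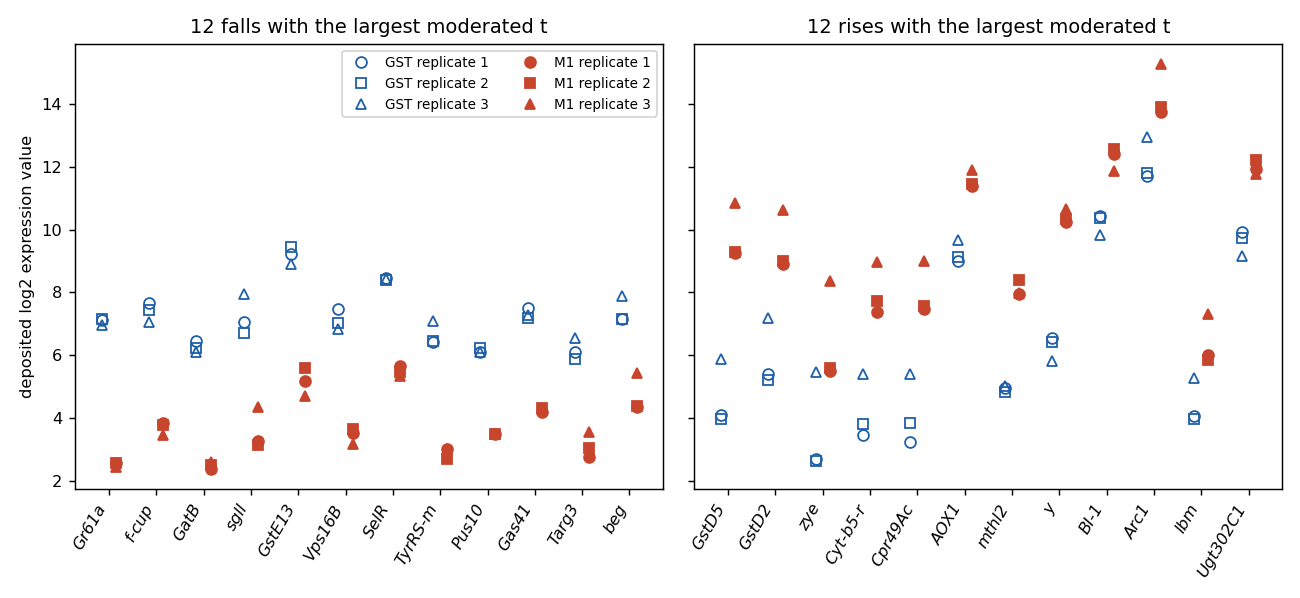
Deposited log2 values (vertical axis) of the 12 falls and the 12 rises with the largest moderated t, with 1 point per array, open blue for GST and filled red for M1. By the rule that chose these 24 genes, all 3 M1 arrays lie beyond the GST array of the same number. Replicate 3 (triangles) is shifted together in both groups for genes such as GstD5 and zye.

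The rises were led by glutathione S-transferases of the delta class, enzymes that conjugate glutathione to foreign or oxidised compounds. GstD5 read 4.08, 3.97 and 5.88 with GST and 9.27, 9.30 and 10.84 with M1. The M1 level was 35.7-fold higher (log2 change 5.16 ± 0.14 SE, limma adjusted p = 8.7e-05). GstD2 read 5.41, 5.20 and 7.20 with GST and 8.91, 9.02 and 10.63 with M1, a rise of 3.59 ± 0.14 (SE). In both genes replicate 3 was higher in each group, and the M1 and GST values did not overlap.

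Cyt-b5-r, a cytochrome b5-related protein, rose from 3.44, 3.80 and 5.39 to 7.38, 7.71 and 8.98. The cuticular protein gene Cpr49Ac rose from 3.23, 3.85 and 5.41 to 7.48, 7.57 and 9.02. Both rises were about as large in replicate 3 as in replicates 1 and 2. y (yellow), needed for black cuticle pigment, read 6.54, 6.43 and 5.83 with GST and 10.25, 10.34 and 10.66 with M1, 17.8-fold higher.

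BI-1 (Bax inhibitor-1), a membrane protein that restrains cell death in the endoplasmic reticulum, was already high with GST, at 10.45, 10.37 and 9.82, and reached 12.40, 12.57 and 11.86 with M1. AOX1, an aldehyde oxidase, read 8.99, 9.12 and 9.68 with GST and 11.40, 11.46 and 11.91 with M1. Arc1 encodes a capsid-forming protein related to retrotransposon Gag. It rose by 2.15 ± 0.14 (SE) from GST values of 11.72, 11.83 and 12.96.

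The remaining rises of the 12 were zye, mthl2, lbm and Ugt302C1. mthl2, a G protein-coupled receptor of the methuselah family, read 4.97, 4.83 and 5.03 with GST and 7.94, 8.40 and 7.99 with M1. zye rose by 2.89 ± 0.12 (SE), although its GST values spanned 2.61 to 5.47 because replicate 3 was high. lbm, a tetraspanin, rose by 1.96 ± 0.13 (SE), and Ugt302C1, a UDP-glycosyltransferase, by 2.37 ± 0.16.

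Most genes of the machinery that makes proteins inside mitochondria were lower with M1. All 69 genes for proteins of the mitochondrial ribosome were tested, and 52 were lower and 1 was higher, with a median change of -1.10. Over all 5910 genes 24.2% were lower and the median change was -0.09. In replicates 1 and 2 the list's median was -1.08, and the third pair gave -1.22. Leaving out each array in turn left 47 to 51 lower, and no block left 36. With spike-in centring none was called lower, and 28 were when it left out GST replicate 2.

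mRpL2 had the largest fall on the list, from 8.13, 8.02 and 8.39 to 4.17, 4.99 and 5.09. mRpS21 fell from 10.53, 10.84 and 11.27 to 8.41, 8.35 and 9.18. mRpL36, with the smallest p on the list, fell by 1.98 ± 0.12 (SE, limma adjusted p = 0.00026). The member called higher was mRpS5, at 10.76, 10.32 and 9.33 with GST and 11.05, 11.48 and 10.20 with M1. Its groups overlap, and its limma adjusted p was 0.025 with the array set as a block, 0.057 with the replicate number as a block, and above the threshold with some single arrays left out.

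Among mitochondrial aminoacyl-tRNA synthetases, which charge the transfer RNAs of that ribosome, 6 of 9 tested were lower (66.7%, all genes 24.2%). None was higher, and the median was -0.66. TrpRS-m read 7.81, 7.31 and 8.13 with GST and 4.30, 4.80 and 5.61 with M1. AsnRS-m fell by 2.05 ± 0.23 (SE). Another 5 listed synthetases were below the filter.

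The respiratory chain contains subunits made by the mitochondrial ribosome beside those of nuclear genes. Of 25 tested genes for complex I, 5 were lower, a smaller share than the 24.2% of all genes, and none was higher. Their median was -0.21, and -0.099 without replicate 3 of either group. The count was 2 without GST replicate 2, GST replicate 3, M1 replicate 2 or M1 replicate 3. ND-13B, a complex I subunit, fell by 1.34 ± 0.16 (SE). Of 27 tested subunits of complexes III and IV and of ATP synthase, none was lower and 1, UQCR-11, was higher. UQCR-11 rose by 1.74 ± 0.20 (SE).

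Factors that assemble these complexes were 6 lower (42.9%, all genes 24.2%) and 2 higher (14.3%, all genes 11.3%) of 14. Under the replicate block and with each array left out 1 was higher. Surf1 and Sdhaf3 passed the filter through the GST level alone and so had to be lower. Surf1, needed to assemble cytochrome oxidase, read 7.29, 7.28 and 7.34 with GST and 3.62, 3.78 and 4.41 with M1. Sdhaf3, an assembly factor of succinate dehydrogenase, read 6.68, 7.40 and 7.35 with GST and 2.98, 2.62 and 4.21 with M1. Cox17, a copper chaperone for cytochrome oxidase, was on the contrary higher, by 0.86 ± 0.13 (SE). Of 11 enzymes of the tricarboxylic acid cycle only SdhD was called, lower by 0.88 on the log2 scale.

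**Figure D2:**
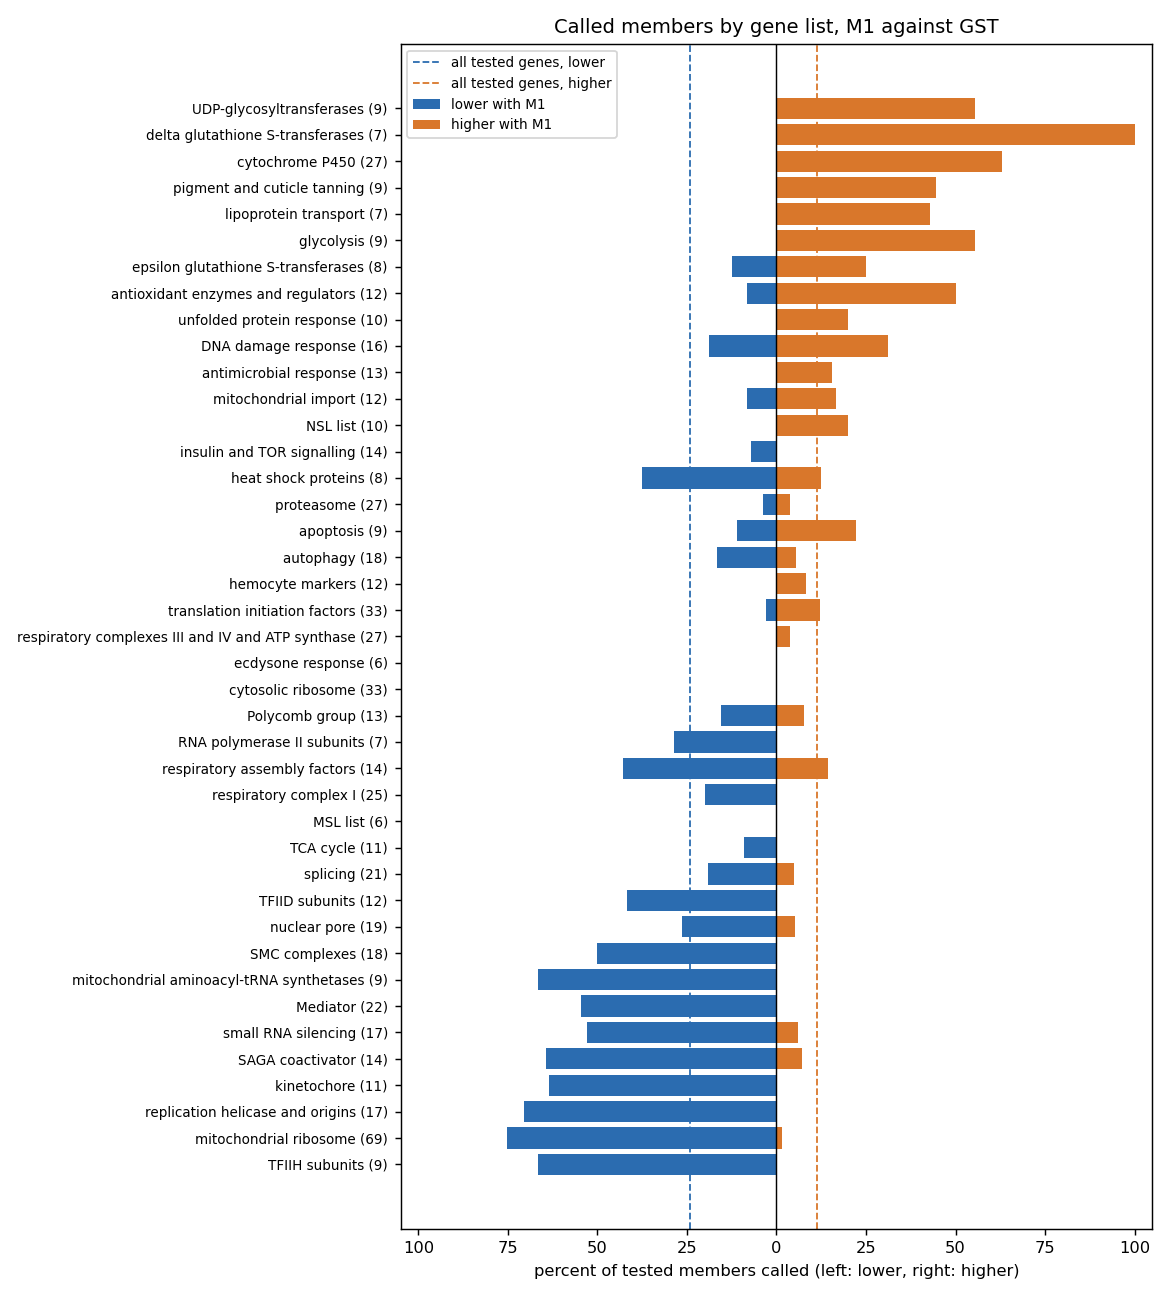
Percentage of tested members called lower (blue, left) or higher (orange, right) with M1 in each list of at least 5 tested genes, ordered by median change, with the number tested in brackets. Dashed lines mark all tested genes, 24.2% lower and 11.3% higher. The mitochondrial ribosome, replication and TFIIH lists lie far to the left, and the delta glutathione S-transferase, cytochrome P450 and UDP-glycosyltransferase lists lie to the right.

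Most tested genes for the start of DNA replication were lower with M1. Of 17 subunits of the origin recognition complex, the MCM helicase, the GINS complex and their loaders, 12 were lower (70.6%, all genes 24.2%). None was higher, and the median was -1.02. Orc4, a subunit of the complex that marks origins, read 6.51, 6.13 and 6.89 with GST and 3.40, 3.95 and 4.40 with M1. Orc5 fell by 2.04 ± 0.16 (SE), and Sld5, a GINS subunit, by 1.62 ± 0.14. The lower members also included Psf1 and Psf2 of GINS, Mcm2, Mcm3, Mcm5 and Mcm6 of the helicase, and Cdc45. Cdc7, Mcm10, Orc1, Psf3 and Cdc6 were not called.

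The kinetochore, which attaches chromosomes to the spindle, had 7 of 11 genes lower (63.6%, all genes 24.2%) and none higher (median -0.91). Without GST replicate 3 or M1 replicate 3 the lower count was 4. Of the 11, Nnf1b and cid passed the filter through the GST level alone and so had to be lower. Mis12 read 8.76, 8.46 and 8.33 with GST and 4.59, 4.93 and 5.13 with M1. Nnf1b, its partner in the same subcomplex, read 6.28, 6.07 and 6.48 with GST and 3.23, 3.46 and 3.18 with M1. Both were named for a small p, which favours values that lie apart.

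SMC complexes, which hold and fold chromosomes, had 9 of 18 tested genes lower (50%, all genes 24.2%) and none higher (median -0.54). Without GST replicate 3, M1 replicate 1 or M1 replicate 3 the lower count was 5. Nse1 and MAGE passed the filter through the GST level alone and so had to be lower. The 3 with the smallest p belong to the Smc5/6 complex, which acts in DNA repair. Nse1 read 6.97, 7.04 and 6.70 with GST and 2.66, 3.14 and 3.22 with M1, near the lowest value. MAGE read 7.30, 7.74 and 7.50 with GST and 3.58, 3.92 and 4.46 with M1. SMC5 fell by 1.55 ± 0.18 (SE), whereas SMC6, its partner, was at a change of 0.17 and was not called.

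Lists of general transcription factors and coactivators differed in their lower share. TFIIH opens the promoter and phosphorylates RNA polymerase II. Of its 9 subunits 6 were lower (66.7%, all genes 24.2%) and none higher (median -1.18). Xpd, a helicase of TFIIH, read 7.03, 6.44 and 7.32 with GST and 4.98, 4.39 and 5.13 with M1. All 3 genes of its kinase module, Cdk7, CycH and Mat1, were lower, by -1.19, -1.12 and -1.18. The other helicase, hay, stood at a change of 0.72 and was not called.

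The Mediator complex, which links activators to RNA polymerase II, had 12 of 22 genes lower and none higher (median -0.67). Its lower share was 54.5%, against 24.2% of all genes and 45.3% of the shortest quartile of genes. The list is short, with a median span of 1264 bases, and the part of gene length was not tested. MED27 read 6.98, 7.18 and 6.77 with GST and 4.72, 4.45 and 4.81 with M1. MED11 fell by 1.63 ± 0.14 (SE) and MED18 by 1.96 ± 0.19. MED1, MED14, MED17 and MED26 were at changes between -0.12 and 0.15 and were not called.

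In SAGA, a coactivator that acetylates and deubiquitylates histones, 9 of 14 genes were lower (64.3%, all genes 24.2%) and 1 higher (median -0.79). Spt3 read 5.40, 5.39 and 5.48 with GST and 3.37, 3.93 and 3.65 with M1. Spt7 fell by 1.66 ± 0.17 (SE) and e(y)2, which belongs to the deubiquitylation module, by 1.20 ± 0.13. Ada2b, the member called higher, had a limma adjusted p of 0.024, and the call was lost with some single arrays left out.

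Of 12 tested TFIID subunits 5 were lower (41.7%, all genes 24.2%). The count was 2 without M1 replicate 2 and 3 without any other single array except GST replicate 2. Taf6 read 8.72, 8.72 and 8.75 with GST and 7.66, 7.67 and 7.76 with M1, a fall of 1.03 ± 0.12 (SE) with little spread in either group. Of 7 RNA polymerase II subunits 2 were lower (28.6%), Polr2J and Polr2G, and of 19 nuclear pore genes 5 were (26.3%), shares near the 24.2% of all genes. For the nuclear pore 3 were lower without GST replicate 3 or M1 replicate 3, and the 1 called higher, Nup98-96, was lost with the replicate number as a block and with each array left out. Nup133 of the pore scaffold fell by 1.27 ± 0.13 (SE).

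Small RNA silencing genes, which include the microRNA, siRNA and piRNA pathways, were 9 lower (52.9%, all genes 24.2%) and 1 higher of 17. The higher one, Ranbp21, had a limma adjusted p of 0.040, and 0.084 with the replicate number as a block. Of the 17, 3 passed the filter through the GST level alone and so had to be lower. nxf2, a piRNA pathway factor in ovaries, read 6.70, 6.56 and 6.73 with GST and 2.34, 2.63 and 3.53 with M1, near the lowest value. Hen1, which methylates small RNAs, read 6.54, 5.63 and 6.22 with GST and 3.02, 3.19 and 3.64 with M1. Trax, a subunit of the C3PO nuclease that assists RNA silencing, fell by 2.78 ± 0.25 (SE). drosha, loqs, vret and Panx were also lower. Dcr-2 and r2d2, which process and load the products of long dsRNA, were at changes of 0.27 and 0.15 and were not called.

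Enzymes that modify foreign compounds were called higher in several families. All 7 delta glutathione S-transferases that passed the filter were higher (median 1.92), and the other 4 of the list were below it. GstD9 read 10.36, 10.22 and 10.02 with GST and 12.13, 12.03 and 12.21 with M1. GstD1, the smallest change of the 7, was at 1.00. These genes are closely related neighbours on chromosome arm 3R, and probes for one can bind transcripts of another, so the members do not count as separate observations. The 7 kept their calls with each array left out in turn. With no block 3 were called, and with spike-in centring 2, also when GST replicate 2 was left out of it (median 1.17).

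Cytochrome P450 genes, which oxidise foreign compounds and hormones, were 17 higher (63.0%, all genes 11.3%) and none lower of 27 tested (median 0.94). Of the 81 on the array 54 were below the filter, and 3 passed through the M1 level alone. Without single arrays 13 to 15 were higher, and with no block 10. With spike-in centring 2 were higher, and 3 (median 0.10) when it left out GST replicate 2. Cyp9b1, which passed through the M1 level alone, read 3.04, 2.27 and 2.81 with GST, near the lowest value, and 7.01, 7.21 and 8.94 with M1. Cyp28a5 read 8.46, 8.41 and 7.92 with GST and 10.53, 10.55 and 10.91 with M1. Cyp6d5 rose by 2.78 ± 0.27 (SE).

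UDP-glycosyltransferases, which attach sugars to such compounds, were 5 higher (55.6%, all genes 11.3%) and none lower of 9 tested (median 2.10). Another 26 were below the filter, and 2 of the 9 passed through the M1 level alone. With a filter at a mean of 6, 3 of 7 were higher and the median was 0.74. Ugt302K1 read 3.94, 3.18 and 3.63 with GST and 6.87, 7.54 and 8.08 with M1. Ugt37D1 read 8.29, 8.61 and 8.25 with GST and 10.54, 10.49 and 10.85 with M1. Ugt302K1 is one of the 2 that passed through the M1 level alone, so it had to be higher.

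Epsilon glutathione S-transferases were mixed, 2 higher (25%) and 1 lower (12.5%) of 8, against 11.3% higher and 24.2% lower of all genes. GstE6 read 12.25, 12.14 and 12.11 with GST and 13.50, 13.51 and 14.04 with M1, while GstE13 fell as given above. GstE11 rose by 2.09 ± 0.35 (SE), from values of 7.99, 8.08 and 7.51 to 9.62, 9.52 and 10.72.

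Among antioxidant enzymes and their regulators 6 of 12 were higher (50%, all genes 11.3%) and 1 was lower. The median was 0.33, and -0.40 with spike-in centring that left out GST replicate 2. Cat, the catalase, read 9.84, 9.63 and 10.42 with GST and 11.43, 11.33 and 11.63 with M1. Gclc, the catalytic subunit for glutathione synthesis, rose by 1.06 ± 0.12 (SE), and Trxr1, thioredoxin reductase, by 0.72 ± 0.12. The lower member was the peroxiredoxin Prx6a, at 7.93, 8.31 and 8.16 with GST and 6.29, 5.24 and 6.36 with M1.

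Pigment and cuticle tanning genes were 4 higher (44.4%, all genes 11.3%) and none lower of 9 tested (median 0.80). Besides y, yellow-b read 5.73, 5.80 and 5.81 with GST and 8.17, 8.42 and 7.80 with M1. Pu, the GTP cyclohydrolase that begins the synthesis of pteridines, read 6.12, 5.38 and 5.59 with GST and 8.63, 9.27 and 9.46 with M1. Of 101 cuticular protein genes on the array 97 were below the filter, and 2 of the 4 tested were higher, or 1, Cpr49Ac, with the replicate number as a block.

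Of 7 lipoprotein transport genes 3 were higher (42.9%, all genes 11.3%), and 2 of the 7 passed the filter through the M1 level alone. The median was 0.67, and -0.03 with spike-in centring that left out GST replicate 2. Apoltp, an apolipoprotein for lipid transfer in the hemolymph, read 4.26, 4.22 and 7.43 with GST and 9.07, 9.28 and 10.60 with M1. LpR1, a lipophorin receptor, read 3.09, 3.69 and 3.10 with GST and 5.46, 6.24 and 4.41 with M1. Apoltp rose 20.3-fold and LpR1 4.21-fold, but LpR1 is one of the 2 that passed through the M1 level alone.

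Glycolytic enzymes were 5 higher (55.6%, all genes 11.3%) and none lower of 9. The median was 0.56, and -0.13 with spike-in centring that left out GST replicate 2. However, 2 were higher with the replicate number as a block. Without GST replicate 1, GST replicate 2 or M1 replicate 1 the count was 3, and it was 2 without any other array. Tpi, triose phosphate isomerase, read 12.02, 12.39 and 12.25 with GST and 13.13, 13.00 and 13.57 with M1. Pfk, phosphofructokinase, read 9.01, 8.81 and 8.12 with GST and 9.69, 9.70 and 9.83 with M1.

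Heat shock genes were 3 lower (37.5%) and 1 higher (12.5%) of 8, and none was higher with the replicate block or with any array left out. Hsp68 read 9.64, 9.90 and 12.85 with GST and 8.12, 8.29 and 11.31 with M1, so that the groups overlap and the fall of 1.56 ± 0.14 (SE) is seen within each array set. Hsp26 and Hsp27 fell by 1.03 ± 0.16 and 1.63 ± 0.30 (SE), with the same overlap. The unfolded protein response list was 2 higher (20%) and none lower of 10, against 11.3% higher and 24.2% lower of all genes. Herp, which acts in degradation at the endoplasmic reticulum, rose by 1.04 ± 0.15 (SE) and Sil1, a cofactor of its main chaperone, by 0.93 ± 0.16.

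DNA damage response genes were 5 higher (31.25%) and 3 lower (18.75%) of 16, against 11.3% higher and 24.2% lower of all genes. Their median was 0.23, but it was -0.075 in replicates 1 and 2 and 0.92 in replicate 3. The higher ones were 3 without GST replicate 2, GST replicate 3, M1 replicate 2 or M1 replicate 3. Without GST replicate 1 only 1 was lower. tefu, the ATM kinase, read 8.29, 7.92 and 8.27 with GST and 5.93, 6.37 and 6.37 with M1. Irbp and Ku80, the Ku subunits that bind broken DNA ends, rose, Ku80 from 7.51, 7.33 and 7.43 to 8.63, 8.87 and 9.82. Irbp rose by 1.78 ± 0.28 (SE).

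Antimicrobial response genes were 2 higher (15.4%) and none lower of 13, against 11.3% higher and 24.2% lower of all genes. The higher count was 1 under the replicate block. Drs (drosomycin), an antifungal peptide, read 7.23, 6.36 and 5.99 with GST and 9.70, 9.64 and 10.23 with M1. Of the hemocyte markers 1 of 12 was called, NimC1, a phagocytic receptor, which rose by 2.26 ± 0.23 (SE) from 9.32, 9.16 and 9.19. The median change of the 12 was 0.00. Of 3 tested germ line markers zpg and aub were lower, and of 2 tested neuron markers brp was higher, by 1.10 ± 0.12 (SE). The part of other cell types in these results was not tested.

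The genes of the complex that MBD-R2 belongs to had few calls. Of 10 genes on the NSL list, which holds subunits and associated proteins, 2 were higher (20%) and none lower (median 0.15). Of all genes 11.3% were higher and 24.2% lower. No gene of the list was called with the replicate number as a block. nsl1, a scaffold subunit, read 10.50, 10.72 and 10.54 with GST and 11.03, 11.05 and 11.19 with M1 (limma adjusted p = 0.036, and 0.094 with the replicate block). Rcd5 read 9.38, 9.29 and 8.76 with GST and 9.95, 9.86 and 9.24 with M1 (adjusted p = 0.020, and 0.067 with the replicate block). Both calls were also lost with some single arrays left out, and both changes were below 0 with spike-in centring that left out GST replicate 2.

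The acetyltransferase gene mof read 7.45, 6.60 and 6.45 with GST and 6.61, 6.74 and 6.40 with M1, a change of -0.25 ± 0.24 (SE). The other NSL-list genes were between -0.54 for Chro and 0.41 for Nup153. They were dgt1 at -0.02, pzg at -0.20, Rcd1 at 0.22, wds at 0.17 and Mgtor at 0.14. No gene of the MSL list was called (6 tested). Their median was -0.26, -0.032 after quantile normalisation, and between -0.50 without M1 replicate 2 and -0.070 without M1 replicate 1 over the single-array omissions. msl-2, the male-specific subunit, was at -0.46 ± 0.32 (SE), msl-1 at -0.14, msl-3 at -0.49, mle at 0.28, JIL-1 at -0.32 and Clamp at -0.21. The standard errors of msl-1, msl-2, msl-3 and JIL-1 were 0.29 to 0.37, so changes of the size of those in nsl1 and Rcd5 were not resolved in them.

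Several abundant housekeeping groups had few calls. Of 33 tested cytosolic ribosomal protein genes none was called, and their changes lay between -0.29 and 0.08. Of 27 tested proteasome genes 1 was lower and 1, Rpn1, was higher. Rpn1 had a limma adjusted p of 0.049, and 0.14 with the replicate number as a block, and was not called with any array left out. The lower one was Rpt3R, a variant of an ATPase subunit, at 5.68, 5.19 and 6.75 with GST and 3.21, 3.13 and 3.08 with M1. Translation initiation factors were 4 higher (12.1%) and 1 lower (3.03%) of 33, against 11.3% higher and 24.2% lower of all genes. The higher ones were 2 under the replicate block and without GST replicate 2, M1 replicate 1 or M1 replicate 2. eIF4E6, a cap-binding protein variant, fell by 3.52 ± 0.24 (SE), and eIF6, a ribosome assembly factor, rose by 1.33 ± 0.20.

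Counts for the remaining lists are set against the 24.2% lower and 11.3% higher of all genes. Mitochondrial import genes were 2 higher (16.7%) and 1 lower (8.33%) of 12, and 1 higher and 0 lower with the replicate block. Apoptosis genes were 2 higher (22.2%) and 1 lower (11.1%) of 9, and 1 higher and 0 lower with that block. Splicing genes were 4 lower (19.0%) and 1 higher of 21, with 2 lower and none higher under the replicate block and 2 lower and without GST replicate 3, M1 replicate 1 or M1 replicate 3, and Prp38 fell by 1.49 ± 0.13 (SE). Polycomb group genes were 2 lower (15.4%) and 1 higher of 13, with 0 lower under the replicate block.

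Autophagy genes were 3 lower (16.7%) and 1 higher of 18, with 1 lower under the replicate block and without GST replicate 1, GST replicate 3 or M1 replicate 3. The higher one, Atg18b, read 7.01, 6.85 and 6.42 with GST and 9.18, 9.57 and 10.53 with M1. Of 14 genes of insulin and TOR signalling gig, a subunit of the TSC complex that restrains TOR, was lower by 1.10 on the log2 scale, and none was higher. No ecdysone response gene was called (6 tested).

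The share of genes called lower decreased from short to long genes. When the named genes were ordered by the length of their annotated span in RefSeq, 45.3% of the shortest quartile were lower, against 29.0%, 16.4% and 5.90% in the following quartiles. The higher share was 9.43%, 12.01%, 9.98% and 14.0% from the shortest to the longest quartile. The median change was -0.45 in the shortest and 0.10 in the longest quartile. In the shortest quartile the median was -0.39, -0.46 and -0.51 in the pairs of replicates 1, 2 and 3, and in the longest it was -0.11, 0.33 and 0.09, so that the pairs differed in sign there.

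The mean log2 value of the shortest quartile minus that of the longest was computed for each array. It was -0.16, 0.12 and 0.04 with GST and -0.68, -0.88 and -0.69 with M1. The groups did not overlap, and the difference was -0.75 (exact permutation p = 0.1, two-sided, the smallest that 20 splits allow). The array without dsRNA stood at 0.02, and the M2 arrays at -0.88, -0.86 and -0.82. The part of the 3′ to 5′ gap, whose values are given with the arrays above, was not tested.

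**Figure D3:**
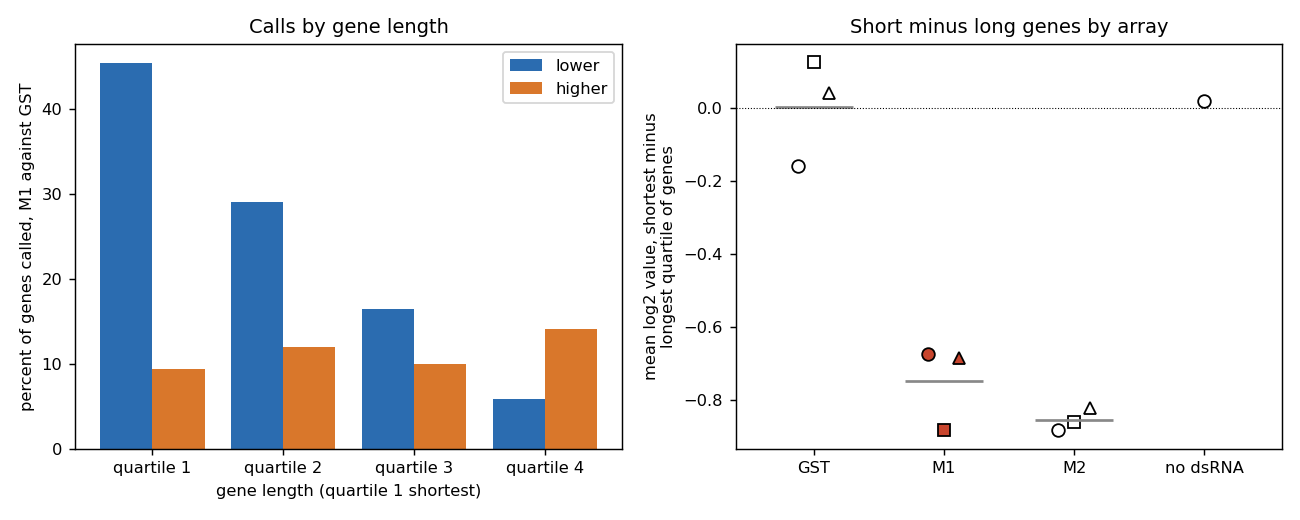
Left, percentage of genes called lower (blue) or higher (orange) with M1 in each quartile of gene length. Right, mean log2 value of the shortest minus the longest quartile on each array (circles, squares and triangles for replicates 1, 2 and 3, grey lines for group means), which lies between -0.16 and 0.12 with GST and between -0.88 and -0.68 with M1.

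The order of shortest and longest genes was the same in each quartile of expression. With genes also split by their level on the array without dsRNA, which enters neither group, 49.6%, 58.8%, 51.4% and 21.3% of the shortest genes were lower from the lowest to the highest level quartile. Of the longest genes 6.49%, 9.38%, 4.61% and 3.79% were lower. Expression level alone gave 29.6%, 33.7%, 24.0% and 9.34% lower, and 18.5%, 11.1%, 8.53% and 7.24% higher. Cytosolic ribosomal protein genes, of which none was lower, are also short, with a median span of 1119 bases against 909 for the mitochondrial ribosome list. The 2 lists also differ in level, with a mean of 15.08 against 8.96 with GST. The part of level in this contrast was not tested. The median span was 1664 bases for genes called lower, 2987 for those called higher and 3504 for the rest. Among other lists with large lower shares it was 1264 for Mediator, 1407 for the kinetochore and 1769 for TFIIH. For SMC complexes and small RNA silencing it was 4361 and 4241. The part of gene length in the list counts was not tested.

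Chromosomes differed in their share of calls. The X carried 994 tested genes, of which 178 (17.9%) were called lower and 104 (10.5%) higher. Chromosomes 2 and 3 carried 4859, of which 1246 (25.6%) were called lower and 563 (11.6%) higher. The arms of chromosomes 2 and 3 ranged from 24.3% to 27.2% lower. On chromosome 4 none of 42 tested genes was lower and 3 were higher, and 30 of its genes were in the longest quartile.

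The mean log2 level of X-linked genes minus that of genes on chromosomes 2 and 3 was -0.14, -0.15 and -0.10 with GST and -0.0013, -0.0017 and -0.04 with M1. All M1 arrays lay above all GST arrays, by 0.12 on average (exact permutation p = 0.1, two-sided, the smallest that 20 splits allow). X-linked genes had a median span of 3251 bases, longer than the 2623 to 2765 of the other large arms. Within length quartiles the lower share on the X and on chromosomes 2 and 3 was 43.2% and 45.7%, 22.2% and 30.5%, 11.1% and 17.7%, and 3.89% and 6.55%, from shortest to longest.

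Calls were also compared between neighbouring genes. The tested neighbours of genes called higher were higher in 16.8% of cases, against 9.45% of all tested neighbours. The tested neighbours of genes called lower were lower in 30.8%, against 26.9%. These shares are descriptions, and families of adjacent copies such as the GstD genes contribute to the first.

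The array sets shared the direction of most M1 effects. A fit of replicates 1 and 2 alone called 1809 probe sets (24.8%), 1168 lower (16.0%) and 641 higher (8.78%), and 1736 of them (96.0%) had the same sign in replicate 3. The following medians are of the probe sets called over all 6 arrays, a choice that already used replicate 3. Those called lower had a median change of -1.17 in replicates 1 and 2 and -1.23 in replicate 3. For those called higher it was 0.95 and 1.23. A test of the difference in effect between the sets called none of 7300 probe sets (0.00%) by limma's interaction term over the 6 arrays, although 939 had an unadjusted p under 0.05. With the M2 arrays added to estimate the spread, a choice made after seeing the data, 51 were called (0.699%), with 32 differences upward in replicate 3 (0.438%) and 19 downward (0.260%).

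**Figure D4:**
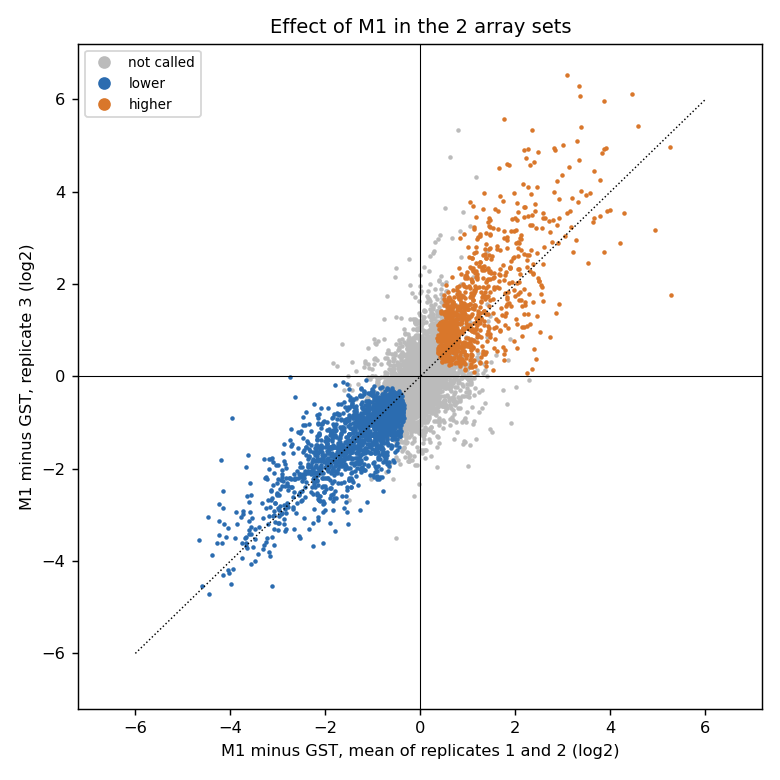
Difference between M1 and GST (log2) in replicates 1 and 2, averaged (horizontal axis), and in replicate 3 (vertical axis) for the 7300 tested probe sets, grey where not called, blue where lower and orange where higher. The dotted line marks equal effects, and 2473 of the 2474 called probe sets have the same sign in all 3 pairs.

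M1 and M2 are different dsRNA constructs against the same transcript, and the arrays of both constructs were compared directly, without the GST controls. Replicate 3 of M2 carries the name M3 in its title, whereas its other labels give M2. With the array set again as a block, limma called none of 7300 probe sets (0.00%), and 398 had an unadjusted p under 0.05. The median 95% half-width of the difference was 0.26, and 98.3% of the estimated differences were within 0.5 on the log2 scale. A miss of the threshold does not show that the constructs act alike. The named gene with the largest estimate among the 5 smallest p-values was lute, M2 above M1 by 1.24 (95% interval 0.80 to 1.69, adjusted p = 0.82).

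For the 12 rises described first every estimate of M2 minus M1 was below 0, from -0.75 for Cpr49Ac (95% interval -1.21 to -0.29) to -0.013 for BI-1. The intervals also excluded 0 for zye, GstD2, AOX1 and Arc1, and none of the 12 passed the adjusted threshold. These 12 were chosen for large rises on the same M1 arrays, a choice that favours estimates below 0. Their shared sign and intervals are therefore no separate evidence of a difference between the constructs. For the 12 falls the estimates lay between -0.08 for sgll and 0.28 for GstE13. Gr61a read 2.57, 2.45 and 2.51 with M2, and GatB 2.76, 2.54 and 2.49. GstD5 read 8.38, 8.51 and 11.11 with M2, a difference from M1 of -0.47. Across the mitochondrial ribosome list the median difference between M2 and M1 was -0.07, and across the delta glutathione S-transferases that passed the filter it was -0.31.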

How the data were processed

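The authors deposited log2 expression values, 1 for each probe set on each array, made with GCRMA per the submitters' processing notes (background correction, normalisation and summary of probes). Neither its version nor detection calls were given in the sources used. Of 18952 probe sets, 183 are controls, 13647 name 1 gene, 402 several and 4720 none, and 13544 were matched to RefSeq Release 6 by Entrez identifier. Probe sets with a mean of at least 4 over the 6 arrays entered limma 3.58.1 under R 4.3.3 (lmFit, eBayes, array set as a block), with Benjamini-Hochberg adjustment over all of them and a threshold of 0.05, and the fit was tested on simulated data. Counts by gene use the probe set of highest mean.

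The members, the 47 gene lists and the tests were chosen with earlier results of these data known. After values were seen, cyclophilins and a few mistaken entries were taken out of 4 lists. Named genes are the 12 falls and 12 rises with the largest moderated t among called genes with a symbol that moved the same way in each pair, up to 3 called members of each list in each direction by p, and all NSL and MSL genes. Other list members named in the text, and lute, were chosen after their values were seen.

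The check of replicate numbers as pairs used each array's deviations. Those deviations from group means correlated at 0.34, 0.37 and 0.75 for equal numbers, and at 0.63 and 0.68 between numbers 1 and 2, so the pairing comes from the data and mostly follows the array set. The number of arrays limits the precision. Alternatives were other blocks, filters, normalisations, variance models and thresholds, and leaving out each array. Figures used Python 3.11.15 and matplotlib 3.10.9.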

Additional observations from a re-analysis of the deposited data

Results flagged for a closer look

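With the M2 arrays added to the fit, a choice made after seeing the data, the interaction term called 51 of 7300 probe sets (0.699%) whose M1 effect differed between replicate 3 and replicates 1 and 2, and 1353 had an unadjusted p under 0.05. The effect had opposite signs in 17, was larger in replicate 3 in 30 and smaller in 4. The 6-array fit called none, so these calls rest on the M2 arrays' estimate of the spread. daw, an activin-like ligand, read 10.50, 10.64 and 6.92 with GST and 10.04, 10.09 and 9.26 with M1, and its effect was 2.84 higher in replicate 3. IM33 rose in every pair, with an effect 3.82 larger in replicate 3. The effect on sls, a titin-like muscle protein, was 3.13 larger in replicate 3. It read 3.04, 2.87 and 4.17 with GST and 3.29, 3.66 and 7.82 with M1. Of the M1 values only that of replicate 3 was above 4, so the filter itself favoured a larger effect there. Cyp28d1 rose in every pair, by 1.92 more in replicate 3. In the other direction differed teq by -2.71, the metallothionein MtnA by -1.94 and Apoltp by -1.77. MtnA read 13.55, 13.64 and 10.82 with GST and 13.81, 13.82 and 9.10 with M1. Adjusted p-values of these 7 genes were 0.024 to 0.044 (limma).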

How the results depend on the processing

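The 2474 calls (899 higher, 1575 lower) became 1279 (335 and 944) with no replicate block of any kind, 896 (248 and 648) with no filter, 1385 (418 and 967) at a threshold of 0.01 and 74 (31 and 43) with spike-in centring, where GST replicate 2 had a spike-in median of 13.12 against 10.66 to 12.34 on the other 5 arrays. The cause was not tested, except that a stricter threshold calls fewer by construction. With the replicate number as a block 1897 were called (26.0%), 623 higher (8.53%) and 1274 lower (17.5%), and 23 of the 137 called named genes lost their call. Leaving out single arrays gave 1809 to 2062 calls, 545 to 794 higher and 1161 to 1345 lower. Over the other alternatives counts were 1991 to 3087. Spike-in centring without GST replicate 2, added after seeing the data, called 827 (72 higher, 755 lower), and moved the median of all probe sets to -0.85 from -0.05. There 18 named genes turned negative: Cpr11A -0.024, Dark -0.067, Dronc -0.15, eIF2Bdelta -0.22, eIF2D -0.018, Hsp60A -0.30, mRpS5 -0.086, Npc2a -0.026, nsl1 -0.16, Nubpl -0.23, Nup98-96 -0.27, PGRP-LA -0.028, Prp6 -0.039, Psc -0.12, Ranbp21 -0.20, Rcd5 -0.24, Rpn1 -0.34 and Tom7 -0.32. The difference between array sets called 0 probe sets in the 6-array alternatives except no filter (1004), and 51 over 9 arrays. M2 against M1 called 0 under every alternative run, with 28 to 578 unadjusted, and 431 unadjusted with the replicate block. The short-minus-long difference ranged from -0.33 to -0.83 and the X-linked one from 0.09 to 0.13, and permuting within replicate numbers gave p = 0.25 for both, the smallest 8 splits allow (exact).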
